A study of Homo sapiens with 6 samples.

Results

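General transcription factors and elongation factors were followed in KMS-27, a line of human malignant plasma cells from multiple myeloma. The 48 genes were chosen by name, not by their values. They encode the factors that place RNA polymerase II at promoters (TFIIA, TFIIB, TFIID, TFIIE, TFIIF and TFIIH, with TAF15) and the factors that carry it through genes (DSIF, SPT6, FACT, the ELL family, TFIIS, elongin and the PAF1 complex). All 48 were among the 16444 genes of the authors' spike-in table. In the table of FPKM (read fragments for each kilobase of a transcript, scaled to the depth of the library), 39 of them were among the 6285 genes abundant enough to test. AATF, the gene of the Che-1 protein, had been silenced by siRNA in 3 libraries (siChe-1), and 3 libraries were from cells with a control siRNA (siControl). The labels name no other allele or agent and give no dose and no time. Since they do not say whether the 3 libraries were grown as separate cultures, the p-values describe library-to-library spread that may be technical. The model is 1 cell line. FPKM values carry a list position from 1 to 3 within a group and no replicate number, and the spike-in table holds siChe-1 replicates 1 and 2 and siControl replicates 1, 2 and 3.

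At a promoter, TFIID binds the DNA through the TATA-binding protein TBP and its TBP-associated factors (TAFs). TFIIA and TFIIB join it, TFIIF brings in RNA polymerase II, TFIIE recruits TFIIH, and TFIIH opens the DNA and phosphorylates the polymerase tail. Beyond the promoter, DSIF and SPT6 travel with the polymerase, FACT moves histones out of its way and back, TFIIS rescues stalled enzyme, elongin and ELL raise its speed, and the PAF1 complex links elongation to histone modification. Che-1 binds RNA polymerase II. In mouse plasma cells, ELL2 is known for directing the switch to secreted immunoglobulin mRNA.

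The promoters of 5 of the 7 members that changed relative to other genes are shown, because these members moved in both directions and their start regions can be set side by side. Each line gives the 250 bases before the annotated start, 5′ to 3′ on the gene's strand, from RefSeq (GRCh38.p14). Capitals mark matches, on either strand, to any of 5 motifs. These were TATAAA (the TATA box), CCAAT (the CCAAT box), the E-box CACGTG, the ETS factor core CCGGAAG and the GC box GGGCGG. The first 3 lines belong to members that fell and the last 2 to members that rose, in the order chr1:109076004-109076253 (minus strand), chr13:45120260-45120509 (plus), chr11:10750996-10751245 (plus), chr6:34888043-34888292 (minus) and chrX:71366107-71366356 (plus).
TAF13: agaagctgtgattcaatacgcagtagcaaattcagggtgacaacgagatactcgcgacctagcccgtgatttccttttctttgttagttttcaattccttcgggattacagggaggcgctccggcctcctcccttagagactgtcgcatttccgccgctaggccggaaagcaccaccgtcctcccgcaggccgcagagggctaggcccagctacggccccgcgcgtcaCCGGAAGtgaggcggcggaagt
GTF2F2: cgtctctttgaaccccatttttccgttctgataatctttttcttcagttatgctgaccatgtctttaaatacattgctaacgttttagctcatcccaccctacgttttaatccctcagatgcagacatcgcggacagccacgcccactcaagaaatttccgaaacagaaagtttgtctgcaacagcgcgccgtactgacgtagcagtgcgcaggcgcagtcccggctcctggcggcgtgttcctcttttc
CTR9: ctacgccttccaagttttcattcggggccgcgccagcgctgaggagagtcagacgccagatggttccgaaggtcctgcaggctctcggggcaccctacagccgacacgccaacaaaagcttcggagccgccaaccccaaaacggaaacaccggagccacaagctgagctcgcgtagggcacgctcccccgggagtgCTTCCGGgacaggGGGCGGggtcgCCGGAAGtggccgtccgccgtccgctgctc
TAF11: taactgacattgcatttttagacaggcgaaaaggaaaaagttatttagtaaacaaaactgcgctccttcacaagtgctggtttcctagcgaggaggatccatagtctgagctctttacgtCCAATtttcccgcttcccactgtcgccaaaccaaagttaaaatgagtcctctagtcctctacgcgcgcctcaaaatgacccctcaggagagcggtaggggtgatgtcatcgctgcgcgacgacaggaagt
TAF1: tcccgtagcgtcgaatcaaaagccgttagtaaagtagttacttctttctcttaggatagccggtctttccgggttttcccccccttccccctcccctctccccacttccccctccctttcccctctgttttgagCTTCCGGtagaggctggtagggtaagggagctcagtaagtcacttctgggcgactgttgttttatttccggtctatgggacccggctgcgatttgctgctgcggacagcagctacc

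No matched stretch overlapped another in these sequences. TAF13 held an ETS match that began 22 bases before the start. CTR9 held 2 ETS matches, beginning 30 and 54 bases before the start, with a GC box between them. TAF1, which moved the other way, held an ETS match beginning 116 bases before the start. TAF11 held a CCAAT match beginning 130 bases before it, and GTF2F2 held none of the 5 motifs. Over the full 300-base windows (250 before and 50 after the start) of the 39 members with a promoter in the table, CCGGAAG was found in 16 (41.0%), against 10.6% of all 27167 promoters. GGGCGG was found in 25 members (64.1%), against 44.5% of all promoters, and CACGTG in 6 (15.4%), against 7.40%. CCAAT stood in 10 members (25.6%), against 35.7% of all. TATAAA was found in 1 member, GTF2B, against 12.0% of all promoters. Among the 5 members shown, the ETS match was carried by 2 that fell and by 1 that rose, so that it was not confined to a direction there. The called members TAF15, which had no matched promoter, and TCEB1 are not among these 5. These are matches of letters in reference DNA, not measured sites.

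The silencing was seen in every library. AATF averaged 15.1 ± 1.57 FPKM in siChe-1 and 102 ± 15.5 FPKM in siControl (SD, n = 3 each), and its log2 change relative to other genes was -2.57 ± 0.11 (SE, limma adjusted p 0.000117). Over the genes whose reads could be recovered, the 5 libraries of the spike-in table held 19169774 to 21780505 reads. The 123 genes left out held 18.8% of the normalized reads in siChe-1 and 19.7% in siControl. Of 10 plasma cell marker names, among which IGJ, the immunoglobulin joining chain, also stands as JCHAIN, 8 had FPKM values. Their sum ran from 8681 to 12169 in siChe-1 libraries and from 7309 to 10717 in siControl libraries. Most of this sum was IGJ, with a mean of 9229 FPKM, so that it says little of the others. The sums of other cell types were low, at 0.363 to 0.730 in siChe-1 and 0.413 to 0.638 in siControl for T cells (CD3G alone) and at 0.0613 to 0.123 in siChe-1 and 0.203 to 0.693 in siControl for erythroid cells (HBB alone). Markers of B cells before the plasma stage, of myeloid cells and of stroma had no FPKM value to analyse here.

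Relative to other genes, most of the machinery did not pass the test, and the members that did went both ways. TAF15, an RNA-binding protein that associates with TFIID, TAF1, the largest subunit of TFIID, and TAF11, a histone-fold TAF, rose. TAF13, another histone-fold TAF, GTF2F2, the small subunit of TFIIF, TCEB1, elongin C, and CTR9, the scaffold of the PAF1 complex, fell. Together these were 7 of 39 tested members (17.9%), 3 higher and 4 lower. Among all 6285 genes tested with limma, 30.2% were called at an adjusted p under 0.05, 15.1% higher and 15.1% lower. The median member lay at -0.09 and the median of all tested genes at -0.0040 on the log2(FPKM + 1) scale, with 22 members below the median of all genes and 17 above it. Single libraries moved both values. The distance between the medians was -0.085 with all 6 libraries. It was -0.12, -0.017 and -0.12 without siChe-1 positions 1, 2 and 3. Leaving out siControl positions 1, 2 and 3 gave -0.044, -0.16 and -0.018. Without siChe-1 positions 1, 2 and 3, 2, 5 and 1 members were called, where 19%, 25.8% and 15.7% of all genes were. Without siControl positions 1, 2 and 3, 3, 4 and 4 members were called, where 24%, 27.9% and 18.1% of all genes were. In the rescaled FPKM values, the 3 siChe-1 libraries lay above all 3 siControl libraries in 6 members and below them in 9. Over all tested genes, 22.5% lay wholly above and 22.8% wholly below. The split between rises and falls rests on how the libraries are scaled: with the authors' scaling left as deposited, 0 members were higher and 6 lower, and with the upper quartile 5 were higher and 2 lower, where all genes gave 592 higher and 1279 lower and then 1221 higher and 713 lower, against 949 higher and 948 lower here.

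**Figure D1:**
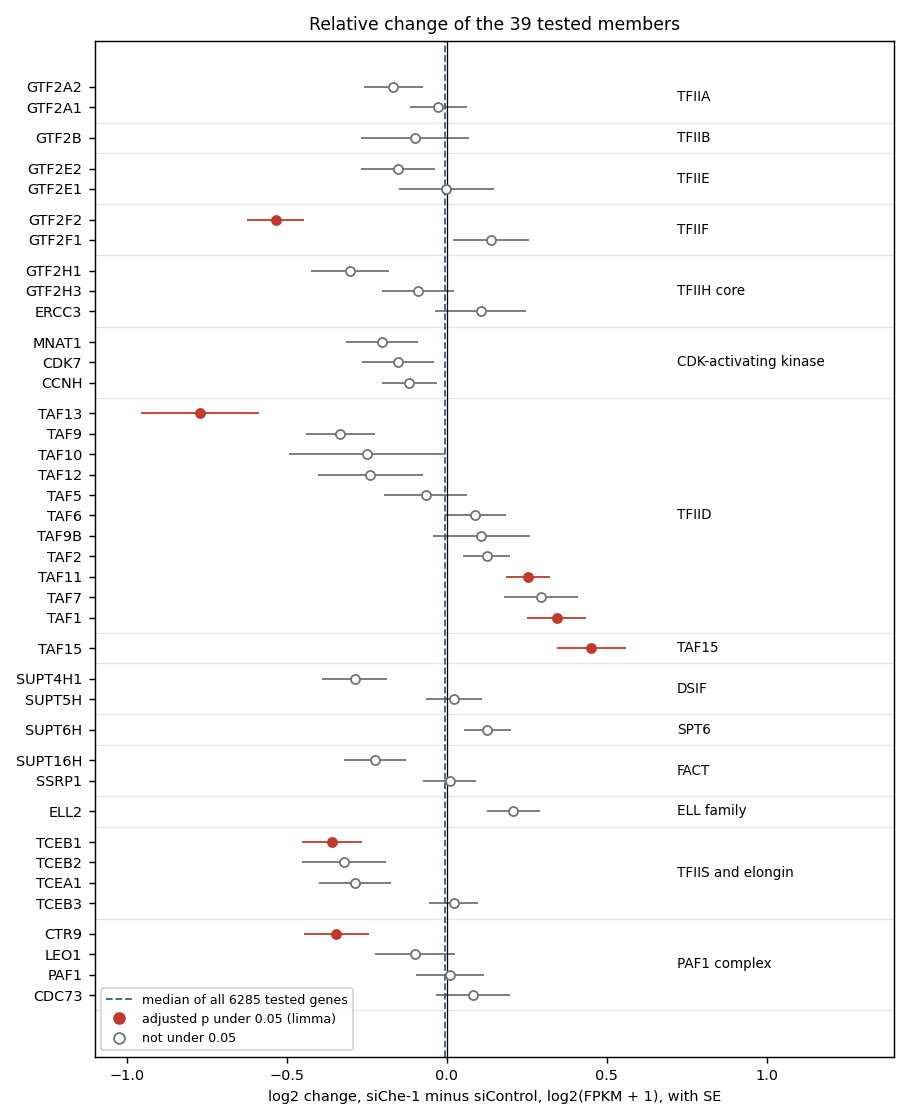
Change of each of the 39 tested members on the log2(FPKM + 1) scale, siChe-1 minus siControl, with the standard error, grouped by complex; filled points passed a limma adjusted p of 0.05 and the dashed line is the median of all 6285 tested genes. The 7 filled points run from -0.77 (TAF13) to 0.45 (TAF15), and within TFIID members lie on both sides of 0.

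TFIID held the widest spread, with 11 tested members against 1 to 4 in each other sub-group. TAF13, which pairs with TAF11 through a histone fold, had 6.48, 10.3 and 6.19 FPKM in siChe-1 libraries, against 14.7, 14.5 and 13.9 FPKM in siControl libraries. The siControl values lay close together and all above the siChe-1 values, of which the one at list position 2 was the highest. On the log2(FPKM + 1) scale the fall of TAF13 was -0.77 ± 0.18 (SE, limma adjusted p 0.0179). TAF13 reached the minimum mean of 10 FPKM only through siControl, with group means of 7.67 FPKM in siChe-1 and 14.4 FPKM in siControl. At a minimum mean of 1 FPKM the change of TAF13 was -0.83 ± 0.17 (SE, limma adjusted p 0.0109). Its partner TAF11 moved the other way, at 18.8, 17.6 and 19.2 FPKM in siChe-1, against 16.1, 16.0 and 17.1 FPKM in siControl, with no overlap. The rise of TAF11 was 0.25 ± 0.07 (SE, limma adjusted p 0.0301). TAF1, which carries the bromodomains of TFIID and binds the start region, stood at 11.4, 11.8 and 13.4 FPKM in siChe-1, against 10.1, 9.39 and 10.7 FPKM in siControl, again without overlap. It rose by 0.34 ± 0.09 (SE, limma adjusted p 0.0289). On hg19, the authors' table places TAF13 on chromosome 1 from 109606998 to 109618624 (minus strand) and TAF11 on chromosome 6 from 34845555 to 34855819 (minus strand). The span it gives for TAF1, chromosome X from 70430035 to 70948962 (plus strand), also takes in neighbouring genes.

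TAF15, on chromosome 17 from 34136488 to 34174238 of hg19 (plus strand), had the largest rise of any tested member. It stood at 35.4, 35.8 and 39.02 FPKM in siChe-1, against 24.2, 28.2 and 33.3 FPKM in siControl, and every siChe-1 value was above every siControl value. The rise was 0.45 ± 0.11 (SE, limma adjusted p 0.0187). TAF15 has 2 transcripts in the table, and both had the higher group mean in siChe-1, the more abundant one at 25.6 FPKM in siChe-1 and 20.7 FPKM in siControl and the other at 11.2 FPKM in siChe-1 and 7.89 FPKM in siControl. Neither had a q value under 0.05 in the authors' deposited table (0.128 and 0.139).

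The paralogs TAF9 and TAF9B, which share the histone fold that pairs with TAF6, differed in abundance. The row filed under TAF9 held the highest FPKM of the members, at 188, 161 and 195 in siChe-1 libraries, against 236, 223 and 273 in siControl libraries. The groups did not overlap, yet the change of -0.33 ± 0.11 (SE) missed the threshold (limma adjusted p 0.0512). That row also holds transcripts of another gene: of its 4 transcripts, RefSeq assigns 2 to AK6, a kinase gene that shares the locus. With the TAF9 transcripts alone, chosen as an alternative after seeing the data, the values were 87.5 ± 11.6 FPKM in siChe-1 and 113 ± 11.1 FPKM in siControl (SD, n = 3 each), a change of -0.28, and lay below TAF10 (167 ± 40.9 FPKM in siChe-1 and 214 ± 61.2 FPKM in siControl). The AK6 transcripts stood at 93.7 ± 6.66 FPKM in siChe-1 and 131 ± 16.8 FPKM in siControl (SD, n = 3 each), a change of -0.38. TAF9B had 57.0, 40.7 and 54.3 FPKM in siChe-1, against 56.9, 41.2 and 51.9 FPKM in siControl, overlapping values with a change of 0.11 ± 0.15 (SE, limma adjusted p 0.628).

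None of the other TFIID members tested passed the threshold. TAF7, which holds back the acetyltransferase activity of TAF1, stood at 81.3, 75.6 and 84.2 FPKM in siChe-1, against 68.3, 58.9 and 83.9 FPKM in siControl (0.29 ± 0.12, SE, limma adjusted p 0.0939). TAF10 and TAF12, both histone-fold subunits also found in the SAGA complex, had changes of -0.25 ± 0.24 and -0.24 ± 0.16 (SE). In both of them the library at list position 2 held the lowest value of its group, for TAF10 123 FPKM in siChe-1 and 145 FPKM in siControl, and the groups overlapped. TAF2, TAF5 and TAF6 lay between -0.07 and 0.12. TBP itself and TAF3, TAF4 and TAF8 were below the minimum mean of 10 FPKM. TBP, the subunit that bends promoter DNA, had 7.82, 8.65 and 6.19 FPKM in siChe-1, against 8.77, 8.69 and 8.0 FPKM in siControl, and the values overlapped. TAF4, a scaffold of TFIID, had 6.77, 8.08 and 6.75 FPKM in siChe-1, against 6.96, 7.08 and 5.36 FPKM in siControl, with overlap as well.

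**Figure D2:**
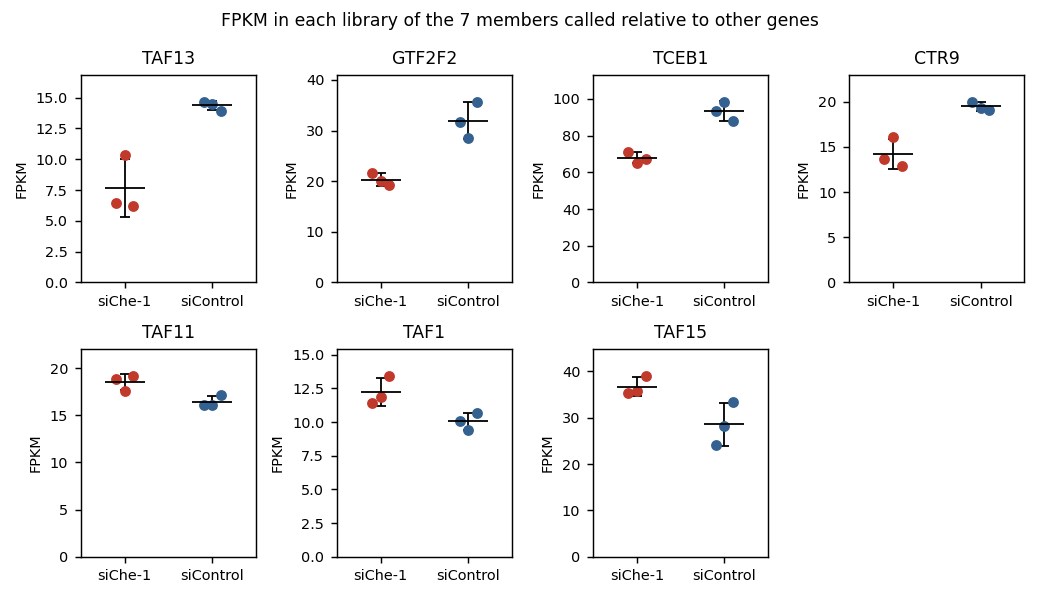
FPKM in each library of the 7 members called relative to other genes, with group means (bars) and SD; siChe-1 is left of siControl and each axis starts at 0. No siChe-1 point reaches the range of siControl in any panel, from TAF13 (means 7.67 and 14.4 FPKM) to TAF15 (36.7 and 28.6 FPKM).

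Among the remaining initiation factors, only GTF2F2 was called with limma on FPKM. It had 21.7, 20.1 and 19.2 FPKM in siChe-1 libraries, against 31.6, 28.6 and 35.7 FPKM in siControl libraries, with a gap between the groups. The fall was 0.53 ± 0.09 (SE, limma adjusted p 0.00514), the smallest p of any tested member. Its partner in TFIIF, GTF2F1, had 20.8, 27.0 and 27.6 FPKM in siChe-1, against 21.6, 25.3 and 25.7 FPKM in siControl, and was at 0.14 ± 0.12 (SE, limma adjusted p 0.423). The authors' table places GTF2F2 on chromosome 13 from 45694631 to 45858239 of hg19 (plus strand).

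TFIIA, TFIIB and TFIIE had no called member among their 5 genes. GTF2A1, the precursor of the large TFIIA subunits, was the most abundant of these at 81.5, 78.0 and 77.2 FPKM in siChe-1, against 89.6, 86.4 and 81.5 FPKM in siControl (-0.03 ± 0.09, SE). GTF2B, which positions the polymerase at the start, had 30.2, 20.6 and 27.9 FPKM in siChe-1, against 32.7, 23.3 and 34.4 FPKM in siControl (-0.10 ± 0.17, SE). GTF2E2, the beta subunit of TFIIE, had 38.0, 32.4 and 39.5 FPKM in siChe-1, against 46.1, 36.1 and 49.2 FPKM in siControl (-0.15 ± 0.12, SE). In GTF2B and GTF2E2 the list position 2 library was the lowest of each group, and in all 3 genes the groups overlapped. GTF2A2, the small TFIIA subunit, and GTF2E1, the alpha subunit of TFIIE, were not called either (limma adjusted p 0.208 and 0.997).

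Of the 7 core genes of TFIIH, 3 were tested and 0 were called. GTF2H1, the p62 subunit, had 35.4, 29.3 and 36.1 FPKM in siChe-1, against 44.6, 37.2 and 52.2 FPKM in siControl. The groups did not overlap, and the change was -0.30 ± 0.12 (SE, limma adjusted p 0.0984). ERCC3, the translocase that opens the promoter, was at 0.11 ± 0.14 (SE), and GTF2H3 at -0.09 ± 0.11 (SE). The helicase gene ERCC2, GTF2H2 and GTF2H5 were below 10 FPKM. GTF2H2, which has near-identical copies in the genome so that its values are uncertain, had 2.22, 1.90 and 2.47 FPKM in siChe-1, against 2.99, 2.44 and 3.39 FPKM in siControl, with a slight overlap. GTF2H4 had FPKM values only on an alternative haplotype of chromosome 6, at 2.02, 2.62 and 1.52 in siChe-1, against 1.48, 2.56 and 1.82 in siControl, and was left out of the test. The 3 genes of the CDK-activating kinase, the TFIIH module that phosphorylates the polymerase tail, lay close together, from -0.20 for MNAT1, its assembly factor, to -0.12 for CCNH, its cyclin, with none called. MNAT1 had 44.5, 44.6 and 55.4 FPKM in siChe-1, against 58.9, 51.6 and 67.6 FPKM in siControl, which overlapped (limma adjusted p 0.211).

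In the elongation machinery, the members called on FPKM were TCEB1 of elongin and CTR9 of the PAF1 complex. TCEB1, the adaptor that elongin shares with ubiquitin ligases, had 71.1, 65.2 and 67.4 FPKM in siChe-1 libraries, against 93.7, 98.5 and 87.7 FPKM in siControl libraries, well apart. It fell by 0.36 ± 0.10 (SE, limma adjusted p 0.0265). Its 2 partners were not called: TCEB2, elongin B, was at -0.32 ± 0.13 and TCEB3, the elongin A subunit that acts on the polymerase, at 0.02 ± 0.08 (SE, limma adjusted p 0.10 and 0.861). TCEA1, which encodes TFIIS, was the most abundant elongation factor, at 136, 110 and 134 FPKM in siChe-1, against 178, 149 and 168 FPKM in siControl, without overlap (-0.29 ± 0.11, SE, limma adjusted p 0.0925). CTR9 had 13.6, 16.1 and 12.9 FPKM in siChe-1, against 20.0, 19.3 and 19.1 FPKM in siControl, with tight siControl values above all of siChe-1. It fell by 0.35 ± 0.10 (SE, limma adjusted p 0.0369). The other tested PAF1 complex genes, PAF1, LEO1 and CDC73, lay between -0.10 and 0.08 and were not called. LEO1, the most abundant of them, had 42.4, 38.0 and 44.9 FPKM in siChe-1, against 46.3, 40.0 and 58.6 FPKM in siControl. In hg19, TCEB1 lies on chromosome 8 from 74857373 to 74884522 (minus strand) and CTR9 on chromosome 11 from 10772811 to 10801290 (plus strand).

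DSIF, SPT6, FACT and the ELL family had no called member. SUPT4H1, the small subunit of DSIF, had 74.0, 59.9 and 70.9 FPKM in siChe-1, against 92.6, 81.8 and 92.6 FPKM in siControl, without overlap (-0.29 ± 0.10, SE, limma adjusted p 0.0663). Its partner SUPT5H was at 0.02 ± 0.09 (SE). SUPT6H, the histone chaperone SPT6, had 22, 24.0 and 22.7 FPKM in siChe-1, against 22.5, 22.4 and 21.9 FPKM in siControl (0.13 ± 0.07, SE, limma adjusted p 0.226). These deposited values overlapped, while the rescaled siChe-1 values all lay above siControl. SSRP1 of FACT had 110, 116 and 112 FPKM in siChe-1, against 117, 121 and 120 FPKM in siControl (0.01 ± 0.08, SE). Its deposited values did not overlap, and after the libraries were rescaled they did. The other FACT subunit, SUPT16H, was at -0.23 ± 0.10 (SE, limma adjusted p 0.117). ELL2 was far more abundant than its paralog ELL per transcript length, at 45.4, 42.4 and 42.7 FPKM in siChe-1, against 43.4, 36.8 and 40.1 FPKM in siControl, and was not called (0.21 ± 0.08, SE, limma adjusted p 0.0956). Its deposited values overlapped, and after the rescaling all siChe-1 values lay above those of siControl. ELL had 5.73, 6.01 and 5.61 FPKM in siChe-1, against 6.83, 6.59 and 6.6 FPKM in siControl, without overlap, and was below the minimum for the test.

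These relative calls differed in how well they held. GTF2F2 was called in all 16 other settings tried (limma, edgeR or DESeq2 adjusted p at most 0.0276) and TAF15 in 14, missing without list position 3 of siChe-1 (limma adjusted p 0.0714) and with the deposited scaling (0.0521). TAF13 was called in 12, missing without siChe-1 position 1 (0.0569) or 3 (0.0632) and without siControl position 1 (0.0504) or 3 (0.0557). TCEB1 was called in 10 settings, CTR9 in 8, TAF11 in 5 and TAF1 in 4 of the 15 that gave it a value. With 1 library left out, the limma adjusted p reached 0.103 for TCEB1, 0.127 for CTR9, 0.102 for TAF11 and 0.110 for TAF1. None of the 39 changed sign in a setting where either value was called.

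The recovered reads of 5 libraries, rescaled on the genes themselves by TMM, gave a second look at all 48 members, from libraries that are also behind the FPKM values. edgeR's quasi-likelihood test called 11 of 48 (22.9%), 10 lower and 1 higher, where 28.8% of 12468 genes were called. TAF13, GTF2F2, TCEB1 and TAF15 were the 4 members called on both, and 32 of the 39 members tested on both had the same sign. The members called lower with TMM that limma on FPKM had not called were GTF2H1 (-0.43 ± 0.11, SE), TCEA1 (-0.42 ± 0.10), SUPT4H1 (-0.40 ± 0.12), GTF2A2 (-0.34 ± 0.12), SUPT16H (-0.31 ± 0.10), TAF9 (-0.45 ± 0.11) and GTF2H2 (-0.59 ± 0.19). Their edgeR adjusted p ran from 0.00744 for TCEA1 to 0.0494 for GTF2A2. On FPKM and with TMM, 26 of the 39 tested members were called by neither.

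Single transcripts add detail to the gene sums. Of 70 member transcripts on assembled chromosomes, 10, each of a different gene, had a q value under 0.05 in the authors' deposited table, all of them lower, where 18.2% of all 18716 transcripts had one, 7.98% higher and 10.3% lower. They belonged to GTF2F2, TAF13, CTR9, GTF2H1, TCEB1, TCEA1, TAF12, SUPT4H1, SUPT16H and TCEB2. For TCEB1, with 8 transcripts, the call lay in the most abundant one, at 29.2 FPKM in siChe-1 and 47.1 FPKM in siControl (q 0.00667 in the authors' deposited table), while the next stood at 26.2 FPKM in siChe-1 and 29.9 FPKM in siControl (q 0.648). TAF1 had 2 transcripts that moved apart. One stood at 8.43, 9.37 and 6.14 FPKM in siChe-1, against 4.06, 6.72 and 1.85 FPKM in siControl, and the other at 3.0, 2.45 and 7.27 FPKM in siChe-1, against 6.04, 2.67 and 8.83 FPKM in siControl. Their libraries overlapped, and neither had a q value under the threshold (0.518 and 0.810 in the authors' deposited table). The 2 transcripts of GTF2A1 also had opposite signs, with 1 of them at 43.7, 8.40 and 46.4 FPKM in siChe-1 and 29.4, 11.9 and 30.4 FPKM in siControl. In both groups the library at list position 2 was the low one, and the q value was 0.694.

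Against the external spike-in RNA, the whole set was lower in siChe-1, as were most genes. In the authors' deposited table, 44 of 48 members (91.7%) had an adjusted p under 0.05, all of them lower, where 63.6% of 12591 genes (mean of 10 or more) were called, 63.5% lower and 0.0635% higher. At a minimum mean of 100 all genes were called lower in 73.7% and higher in 0.0197%. The members ran from -1.98 (TAF13) to -0.82 (TAF15) on the authors' log2 scale, with a median of -1.39, and the median of all genes was -1.25. Below that median of all genes lay 32 members and above it 16. The 4 members not called were TAF15 (adjusted p 0.0871), ERCC3 (-1.22, adjusted p 0.0674), GTF2H5, the smallest TFIIH subunit (-1.12, adjusted p 0.0530), and GTF2H4 (-1.05, adjusted p 0.211), all 4 from the authors' deposited table. Nothing in the labels says when the spike-ins were added, and every library was made from the same amount of total RNA. If they were added to that amount, the shift measures neither cell number nor RNA per cell. Fewer cells in a sample, less RNA per cell and a step in making the libraries cannot be told apart. The cause of the shift was not tested.

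**Figure D3:**
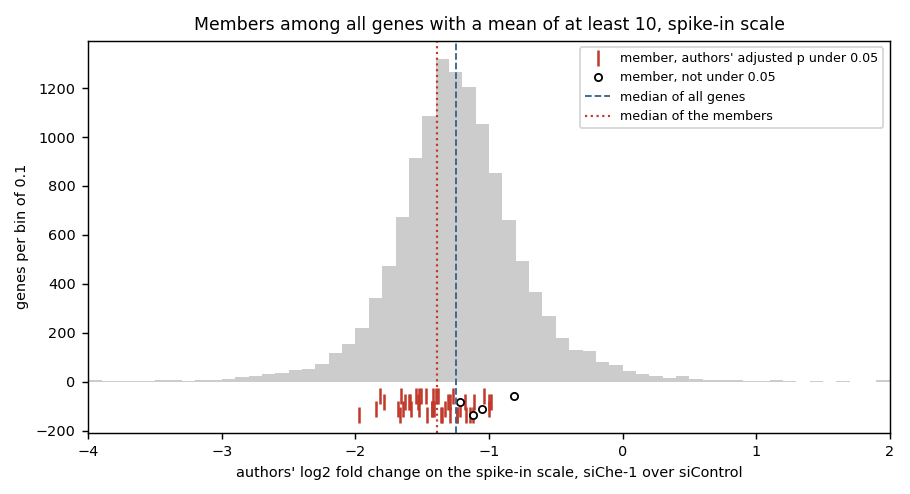
Distribution of the authors' log2 fold change against spike-ins, siChe-1 over siControl, for 12591 genes (grey, values beyond the axis counted in the end bins), with the 48 members marked below it. All members lie left of 0, from -1.98 to -0.82, and their median (-1.39) is left of the median of all genes (-1.25).

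TAF13, GTF2F2 and TCEB1, which fell relative to other genes, were also 3 of the 5 members farthest below the median of all genes on this scale. Reads divided by the spike-in size factor were 54.8 and 88.6 for TAF13 in siChe-1 replicates 1 and 2, against 214, 359 and 274 in siControl replicates 1 to 3. GTF2F2 had 279 and 284 normalized reads in siChe-1, against 708, 1123 and 1211 in siControl, and TCEB1 had 1358 and 1236 in siChe-1, against 3089, 5209 and 5155 in siControl. GTF2H2 and TAF9 were the other two, at -1.82 and -1.68 in the authors' deposited table. The siControl replicate 1 library was the lowest of its group in each of these 5 genes, and still above both siChe-1 libraries.

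At the other end, TAF15 had 1974 and 1616 normalized reads in siChe-1, against 2363, 3842 and 3274 in siControl. TAF11 had 521 and 406 in siChe-1, against 695, 1026 and 1025 in siControl, and TAF1 had 1822 and 1621 in siChe-1, against 2748, 3739 and 3837 in siControl. These 3 members, which rose relative to other genes, were thus at a lower normalized level in siChe-1 than in siControl. TAF4 (-1.003) and TAF7 (-1.04) stood next to them in the authors' deposited table. ELL2, the plasma cell elongation factor, had 3728 and 3022 normalized reads in siChe-1, against 5947, 7473 and 8587 in siControl (-1.12, adjusted p 0.0147 in the authors' deposited table).

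Each library shares a single spike-in factor among all its genes, so that the members shift together. Against the siControl mean of each gene, the median member stood at -1.17 and -1.59 (log2) in siChe-1 replicates 1 and 2 and at -0.35, 0.08 and 0.20 in siControl replicates 1 to 3. Gene reads per spike-in read, which set this shift, were taken over the genes with recovered reads. They were 22.9 and 19.4 in siChe-1 (mean 21.2) and 38.8, 56.7 and 57.9 in siControl (51.1 ± 10.7, SD, n = 3). The ratio was 0.415 (p = 0.2, two-sided, by an exact permutation test, the smallest p that 2 against 3 libraries can give). Without siChe-1 replicate 2, edgeR on the recovered reads called 16 of 48 members lower on the spike-in scale, where 22.5% of all genes were called. With all 5 libraries it called 48 of 48, where 84.5% of all genes were called, 84.3% lower. The distance between the member median and that of all genes, -0.14, was -0.045 without siChe-1 replicate 2 and -0.27 without siControl replicate 2. The third siChe-1 library, with 379232 spike-in reads, is not in the authors' spike-in table. The other 2 siChe-1 libraries had 835414 and 1041244 spike-in reads, and siControl replicates 1 to 3 had 519573, 351573 and 376170. Without gene reads for the third siChe-1 library, its level on this scale is not known here.

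**Figure D4:**
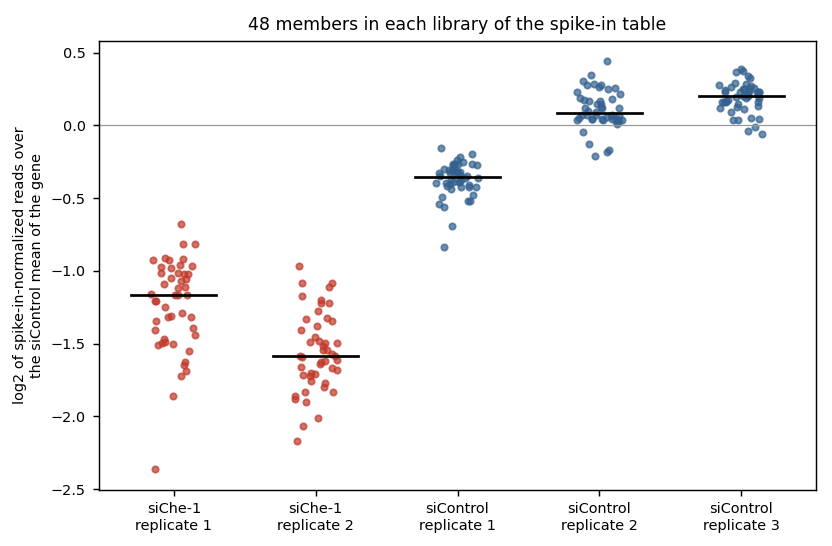
The 48 members in each of the 5 libraries of the spike-in table, as log2 of spike-in-normalized reads over the siControl mean of the same gene; bars are medians. The 2 siChe-1 libraries have medians of -1.17 and -1.59, and siControl replicate 1 (-0.35) lies below the other two siControl libraries (0.08 and 0.20).

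Members with the shortest transcripts had the lowest median change, without a steady order above them. Across the 39 tested members, length of the most abundant transcript and the log2 change on FPKM had a Spearman rho of 0.45, and across 6057 tested genes with a length (96.4%) the rho was 0.23. All points come from the same 6 libraries, and genes are not independent replicates. For TAF9, the most abundant transcript of its row is one that RefSeq assigns to AK6. With genes split by length into 4 groups of about equal size, the 11 members of the shortest group (77 to 1733 bases) had a median change of -0.24 and its 1516 genes one of -0.12. The 13 members of the second group had a median of 0.01 and the 6 of the third one of -0.08, where all genes of these groups were at -0.03 and 0.03. In the longest group (4542 to 34526 bases), the 9 members had a median of 0.08 and its 1514 genes one of 0.09. TAF13, which fell, and TAF11, which rose, were both in the shortest group, and TAF1, which rose, and CTR9, which fell, both in the longest. The part of transcript length in these changes was not tested.

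**Figure D5:**
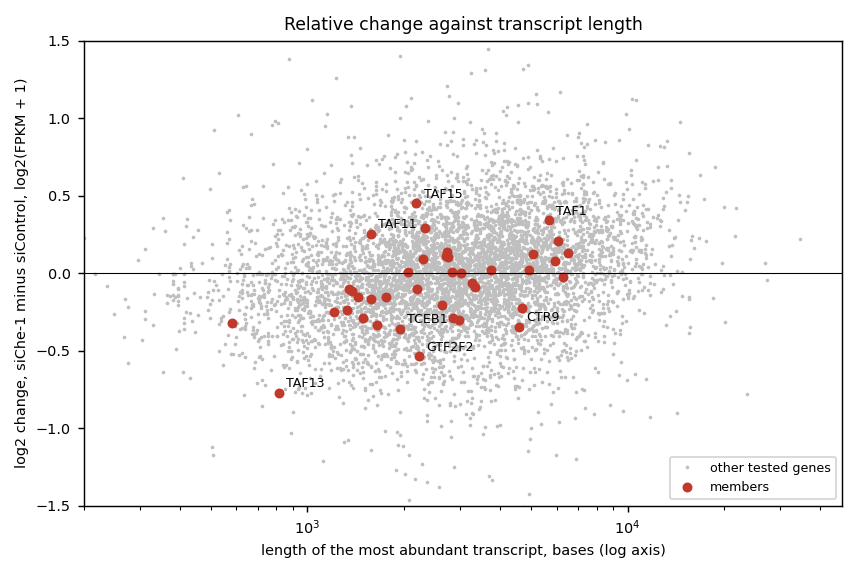
Log2 change on FPKM, siChe-1 minus siControl, against the length of the most abundant transcript (log axis), for the 39 tested members (red, the 7 called ones named) and all other tested genes (grey; 80 genes beyond 1.5 or shorter than 200 bases are not drawn). Members of up to 1733 bases have a median of -0.24 and those of 4542 bases or more one of 0.08.

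Neighbouring parts of the machinery were set beside the members, from lists chosen by name. For comparison, limma called 30.2% of all 6285 tested genes, 15.1% higher and 15.1% lower. Of 10 tested subunits of RNA polymerase II, 0 were higher and 1 lower: POLR2G, a subunit of the polymerase stalk, fell by 0.32 ± 0.09 (SE), and POLR2K, the most abundant, was at 0.20 ± 0.10. Among 7 genes of promoter-proximal pausing and P-TEFb, TH1L, a subunit of the negative elongation factor NELF, fell by 0.34 ± 0.08 (SE, limma adjusted p 0.0195). Among 4 genes of the super elongation complex, in which ELL2 takes part, the scaffold AFF4 rose by 0.38 ± 0.09 (SE, limma adjusted p 0.0164), with MLLT3, the most abundant, at 0.04 ± 0.11. WDR61, a partner of CTR9 in the human PAF1 complex, fell by 0.35 ± 0.10 (SE), and the histone methyltransferase SETD2 rose by 0.26 ± 0.08, both among 7 other elongation genes. Of 11 TBP regulators and TAF relatives, BTAF1, which removes TBP from DNA, rose by 0.28 ± 0.09, and TAF5L of SAGA and TAF1D of the RNA polymerase I factor SL1 fell by 0.35 ± 0.07 and 0.41 ± 0.11 (SE), with TAF4B, the most abundant, not called. With TMM on the recovered reads, these 5 falls were also called, and the 3 rises were not (edgeR adjusted p 0.120 for AFF4, 0.179 for SETD2 and 0.565 for BTAF1, which was then at 0.09).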

How the data were processed

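The 6 KMS-27 libraries were made from 500 ng of total RNA each, with a stranded kit and removal of ribosomal RNA, per the labels' protocols. TopHat, Cufflinks, Cuffdiff, HTSeq and DESeq2 on hg19 are named in the submitters' processing notes. Strand use in counting was not given in the sources used here. Raw counts of reads on 92 spike-ins were deposited for every library, per the file headers. The authors' spike-in table holds a signal (reads divided by spike-in size factors, as group means), a ratio or fold change, its log2 and p-values, per the file headers. The deposited transcript table holds FPKM values, a log2 group ratio and p-values with q values, per the file headers.

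Whole reads per library were recovered from the authors' group means as whole-number solutions (relative tolerance 8e-15), with 1 solution for 16321 of 16444 genes (99.3%) and for all 48 members. Of 2139 siChe-1 means below 3, 100% fitted whole reads of replicates 1 and 2, and 0% fitted another set. Since that table holds means of 5 libraries and not values per library, the authors' adjusted p was counted there, at a mean of at least 10.

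FPKM was summed by gene, genes averaging at least 10 were kept, a median-of-ratios rescaling followed, and log2(FPKM + 1) was tested with limma 3.58.1 (mean-variance trend). This scale understates the change of low genes. Printed FPKM values are as deposited. Recovered reads were tested with edgeR 4.0.16 (quasi-likelihood) and DESeq2 1.42.0. P-values are two-sided and Benjamini-Hochberg adjusted over all genes tested. A gene with an adjusted p under 0.05 is said to be called, to have risen or to have fallen. Scripts were tested on simulated data. With 200 genes changed, limma on FPKM recovered 45% of log2 changes of 0.5 and 90% of changes of 1. For the same sizes, edgeR recovered 38% and 82.5% with TMM, and 0% and 33.5% on the spike-in scale. False calls ran from 0 to 13. A member that was not called may therefore still have changed. Alternatives were other pseudocounts, minimums, scalings and tools, a replicate block, and each library left out.

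Members, lists and tests were chosen with earlier results of these data known. Values in every library are given for members called on FPKM, the 5 farthest to each side in the spike-in table, the most abundant of each complex, and paralog pairs. TBP, GTF2F1 and GTF2H4 were added after their values were seen. Promoters from RefSeq (GRCh38.p14) matched 39 members, with TCEB1, TCEB2 and TCEB3 looked up as ELOC, ELOB and ELOA.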

Additional observations from a re-analysis of the deposited data

How the results depend on the processing

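On FPKM, 7 members were called. The recovered reads of 5 libraries gave 11 with edgeR and TMM, where 28.8% of all genes were called, and 13 with DESeq2. Other pseudocounts, minimums or scalings, or the most abundant transcript alone, gave 6 to 8, with 24.7% to 30.8% of all genes called. In that last setting, the transcript taken for TAF9, which was called, is one that RefSeq assigns to AK6. Leaving out each library in turn gave 1 to 5 calls, with 15.7% to 27.9% of all genes called, against 30.2% with all 6 libraries. With the replicate numbers as a block (replicate block, recovered reads with TMM), 12 members were called. The shares of all genes called with DESeq2 and with this block are not given here, so these counts cannot be set against other genes. Deviations of same-numbered libraries correlated at 0.37 and 0.39, over only 2 pairs, so that the numbers are not shown to pair libraries. On the spike-in scale, where 44 members were called lower, the replicate block gave 0 (9 at an unadjusted p under 0.05 in edgeR, with 0.473% of all genes called). Leaving out a library there gave 16 to 48 by edgeR, and in fits with 1 siChe-1 library it was assumed to vary like siControl. The cause of these differences was not tested. The distance of the member median from that of all genes kept its sign in all settings run. It ran from -0.16 to -0.017 on FPKM with a library left out, was -0.17 with TMM and with DESeq2, and ran from -0.27 to -0.045 on the spike-in scale with a library left out. Relative to other genes, AATF was called in all settings, at -2.70 to -2.32, and the ratio of gene reads per spike-in read was 0.370 to 0.449 with a library left out. A change of sign was counted only where either value was called, and there was none. Low abundance limits what can be said of the 8 members below 10 FPKM and of GTF2H4, with 50.3 to 157 normalized reads per library. The same limit applies to TAF13, although it was called, with 54.8 to 359 normalized reads per library.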
